A study of Mus musculus with 4 samples.

Results

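Mural cells are the pericytes and smooth muscle cells that wrap small blood vessels, here those of the mouse dorsal root ganglion (DRG), the cluster of sensory neuron cell bodies beside the spinal cord. They were sought in 2 single-cell RNA libraries by marker detection. A barcode was a member with at least 200 genes, at most 20% mitochondrial UMIs (unique molecular identifiers, the counted RNA molecules), at least 3 of the 7 mural genes Rgs5, Notch3, Abcc9, Kcnj8, Pdgfrb, Cspg4 and Myh11, and fewer than 4 of 8 endothelial genes. The rule found 107 members among 5139 ganglion barcodes that passed both limits, of 26153 in the whole series. The 1NMPP1 library held 32 members of 2201 barcodes and the vehicle library 75 of 2938.

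Both groups have the same genotype label, an altered receptor kinase of sensory neurons that the compound 1NMPP1 can inhibit, and the study is of injury to the growth plate. The 1NMPP1 group was injected intraperitoneally at 17 µg/g (5 mM solution) 48 h and 2 h before surgery and kept on drinking water that held 40 µM afterwards. The vehicle group received DMSO. Ganglia L1 to L5 were taken 7 days after injury from what the labels call the injected side, and an injection to 1 side is not described in the sources used here. They were dissociated with papain, collagenase and dispase. Neither the number of animals behind each library nor their age is given in the sources used here. With a single library for each group, the differences between groups have no replicate check, and no test was run. Intervals are at 95% and cover counting error only.

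Pericytes sit in the basement membrane of capillaries, and vascular smooth muscle cells ring arterioles and venules. Smooth muscle cells contract through actin, myosin and calcium entry, while pericytes of small vessels are known for potassium channels made of Kcnj8 and Abcc9 and for low levels of contractile proteins. Both depend on Notch3 and on Pdgfrb, the receptor for platelet-derived growth factor from endothelium, and in the ganglion both line a dense vascular bed.

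The rule alone did not isolate mural cells. When the members were clustered, 2 of 6 clusters were led by mural genes. The larger was smooth muscle-like, with Pln, Acta2, Xirp1, Tagln and Myocd at its head. The smaller was pericyte-like, with Stc1, Ifitm1, Kcnj8, Abcc9 and Vtn among its 10 leading genes. The other clusters were led by genes of other cell types: 16 members carried markers of satellite glia, 14 of fibroblasts, 9 of neurons and 6 of chondrocytes. One vehicle barcode of the smooth muscle-like cluster had 30.4% of its 44259 UMIs in neutrophil markers and was left out. This left 61 mural cells, 17 in the 1NMPP1 library (15 smooth muscle-like, 2 pericyte-like) and 44 in the vehicle library (27 smooth muscle-like, 17 pericyte-like).

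The share of a barcode's UMIs in the 7 mural genes is given as a description, since these genes chose the members and entered the clustering. It had a median of 0.802% (range 0.281 to 2.19) in the 61 mural cells and of 0.0240% (highest 0.342) in the 46 other members, so the ranges overlapped at their edges. Of the 46 members with exactly 3 mural genes, 4 were in the mural clusters, and of the 61 members with 4 or more, 57 were. Just outside the threshold, with 2 mural genes, stood 96 barcodes of the 1NMPP1 library and 176 of the vehicle library, whose median mural share was 0.0246% and 0.0165%. No barcode of the 1NMPP1 library and 7 of the vehicle library had enough mural genes but 4 or more endothelial ones. The neuron-marker members held 177408 to 485273 UMIs each and made up 77.5% of all member UMIs in the 1NMPP1 library and 60.3% in the vehicle library, against 10.3% and 14.2% for the mural cells. Sums over all members are therefore mostly UMIs of neuron-marker barcodes, and the levels below are those of the mural cells unless stated otherwise.

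**Figure D1:**
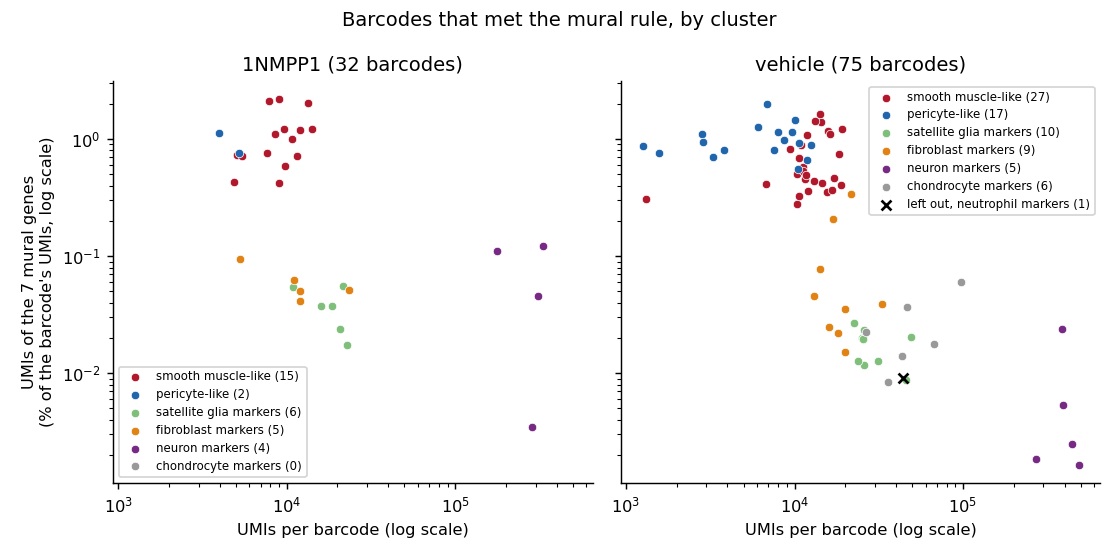
Each point is 1 barcode that met the rule, in the 1NMPP1 library (left) and the vehicle library (right), by its UMIs (x, log scale) and the percent of its UMIs in the 7 mural genes (y, log scale); colours are clusters. Smooth muscle-like and pericyte-like cells lie at or above 0.281%, and the neuron-marker barcodes lie at the right with 177408 UMIs or more.

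Markers of other cell types took few of the UMIs in the mural cells, but more of the vehicle cells carried several of them. No endothelial gene of the rule was found in 16 of 17 mural cells of the 1NMPP1 library and 31 of 44 of the vehicle library. Fibroblast markers made up 0.000676% of the UMIs in 1NMPP1 mural cells and 0.0183% in vehicle mural cells. Their median per cell was 0 in both libraries. Most of the vehicle value came from 1 cell of 19219 UMIs, which had 0.390%. At least 3 markers of another class were found in 2 of 17 mural cells of the 1NMPP1 library and 22 of 44 of the vehicle library. Neutrophil markers took 0.0189% and 0.0275% of mural UMIs and erythroid markers 0.0399% and 0.0361%. Median depth was 8953 UMIs per mural cell in the 1NMPP1 library and 10793 in the vehicle library.

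The 7 genes of the rule are given as a description, since they chose the members. Rgs5, a regulator of G protein signalling and a marker of mural cells (chr1:169655501-169695813, GRCm38), had 6383 CPM (UMIs per 1000000 UMIs of the summed cells) in 1NMPP1 mural cells and 4563 CPM in vehicle mural cells. It was found in 15 of 17 and 43 of 44 cells. In endothelial barcodes it had 1.66 CPM (1NMPP1) and 5.50 CPM (vehicle). Notch3, the Notch receptor of mural cells, had 1177 CPM in 1NMPP1 mural cells and 748 CPM in vehicle mural cells, with a UMI in 17 of 17 and 43 of 44. Pdgfrb had 548 CPM in 1NMPP1 and 372 CPM in vehicle mural cells. Cspg4, the NG2 proteoglycan, had 311 CPM in 1NMPP1 and 187 CPM in vehicle mural cells. Myh11, the smooth muscle myosin heavy chain (chr16:14194535-14291372), had 2928 CPM in 1NMPP1 and 1943 CPM in vehicle mural cells, with a UMI in 17 of 17 and 38 of 44. Those 5 genes were found in most mural cells of both libraries, and Kcnj8 and Abcc9 in fewer.

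Kcnj8 and Abcc9 encode the pore and the regulatory subunit of a potassium channel that closes with ATP. They are neighbours on chromosome 6 of GRCm38, at 142564837 to 142571614 and at 142587862 to 142702315, with 16247 bases between them. Both were found together in 1 of 17 1NMPP1 mural cells and 12 of 44 vehicle mural cells, and neither in 14 of 17 and 24 of 44. In the vehicle library, Abcc9 had a UMI in 15 of 17 pericyte-like cells and in 4 of 27 smooth muscle-like cells, and Kcnj8 in 11 of 17 and 2 of 27. In the 1NMPP1 library both pericyte-like cells had Kcnj8 and 1 had Abcc9, and of the 15 smooth muscle-like cells none had Kcnj8 and 1 had Abcc9.

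In the vehicle library, where 17 pericyte-like and 27 smooth muscle-like cells could be summed, most contractile genes were lower in the pericyte-like cells. Acta2, smooth muscle actin (chr19:34241090-34255590), had 93.1 CPM in pericyte-like cells and 6294 CPM in smooth muscle-like cells. Tagln, the actin-binding protein SM22, had 220 CPM in pericyte-like cells and 7141 CPM in smooth muscle-like cells. Myh11 had 229 CPM in pericyte-like cells and 2526 CPM in smooth muscle-like cells. Acta2 was found in 3 of 17 pericyte-like cells, at up to 6.95 UMIs per 10000, and in 26 of 27 smooth muscle-like cells, at a median of 54.5. So 1 smooth muscle-like cell without a UMI fell into the pericyte-like range. That cell, of 1309 UMIs, had 0% of its UMIs in smooth muscle markers and 0.306% in pericyte markers, so its markers do not bear out the name of its cluster. Pln, the brake on the sarcoplasmic calcium pump, had 320 CPM in smooth muscle-like cells, and Myocd, the coactivator of serum response factor, 222 CPM. Neither had a UMI among the 118093 of the pericyte-like cells, which allows up to 25.4 CPM. Of 22 contractile genes with at least 20 UMIs, 20 had a log2 ratio of -1 or less and none of 1 or more, with a median of -2.90. With the 4 genes that had no UMI in pericyte-like cells set to the bound that 3 UMIs allow, the median was -2.49 and the counts were the same. Over all 3822 genes, 17.4% had a ratio of -1 or less and 16.2% of 1 or more, with a median of -0.03. The clusters were made from these genes, so the ratios describe them and are no test. Median depth was 7603 UMIs in pericyte-like cells and 11986 in smooth muscle-like cells. The exceptions among the 22 were Cald1 (caldesmon), with a log2 ratio of -0.37 (-0.62 to -0.14), and Des (desmin), with -0.32 (-0.88 to 0.19).

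Serum response factor binds the CArG box, a pair of C and a pair of G around a core of A and T, upstream of many contractile genes. The box was searched in the 250 bases before each RefSeq start (GRCm38.p6); it reads the same on both strands. An exact box stood upstream of 2 of 19 contractile genes with a promoter in the table, Myl9 and Srf, of none of 19 pericyte genes, and of 1.62% of all 27025 genes. With 1 base of the core allowed to be C or G, the numbers were 5 of 19, 3 of 19 and 9.78%. Below are stretches before 3 of these RefSeq starts, with the box in capitals, shown because most contractile genes were lower in the pericyte-like cells. They lie at chr2:156775278-156775337 on the plus strand, chr17:46556210-46556269 on the minus strand and chr19:34255423-34255482 on the minus strand. The box of Acta2 has 1 base off. The Acta2 stretch lies before its RefSeq start but inside the Acta2 span given above, which comes from a GENCODE annotation.
Myl9: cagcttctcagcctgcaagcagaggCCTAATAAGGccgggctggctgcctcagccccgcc
Srf: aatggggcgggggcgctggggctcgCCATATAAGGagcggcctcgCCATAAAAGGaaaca
Acta2: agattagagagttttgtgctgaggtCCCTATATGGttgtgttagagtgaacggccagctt
Myl9, the regulatory myosin light chain, had 415 CPM in vehicle pericyte-like cells and 2883 CPM in vehicle smooth muscle-like cells. A match is a description of these letters, and binding was not measured.

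The pericyte side had its own leading genes. Vtn, vitronectin, had 982 CPM in vehicle pericyte-like cells and 74.9 CPM in vehicle smooth muscle-like cells, with a UMI in 16 of 17 and 10 of 27. Ifitm1, an interferon-induced membrane protein, had 1448 CPM and 23.0 CPM, with a UMI in 15 of 17 and 5 of 27. Pde8b, a cyclic AMP phosphodiesterase, had 940 CPM in pericyte-like cells and 40.3 CPM in smooth muscle-like cells. Iigp1, an interferon-inducible GTPase, had 1711 CPM in pericyte-like cells (10 of 17 cells) and 11.5 CPM in smooth muscle-like cells. Pltp, the phospholipid transfer protein, Cp (ceruloplasmin) and the cadherin Cdh2 had log2 ratios of 5.69, 4.22 and 3.70. At the other end, Sorbs2, an actin-linked adaptor, had 8.47 CPM in pericyte-like cells and 856 CPM in smooth muscle-like cells, and Fgf14, Xirp1, Kcnma1 and Bmp6 had no UMI in pericyte-like cells. Of 14 genes of the pericyte list, 3 had a ratio of 1 or more and none of -1 or less, with a median of -0.16. Genes of that list not past the fold included Higd1b (log2 ratio -0.12, -0.92 to 0.58) and Ndufa4l2 (-0.67, -1.20 to -0.19).

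By the marker lists, the cells did not all fall at the ends. Pericyte and smooth muscle markers went against each other over the 61 cells (Pearson r = -0.54, Spearman rho = -0.66, as a description over cells of 2 libraries that differ in depth). Smooth muscle markers themselves had r = 0.63 and rho = 0.43 with the UMIs of the cell. Both r values were taken on log2 values. In 8 of 15 smooth muscle-like cells of the 1NMPP1 library (53.3%, 26.6 to 78.7) and 8 of 27 of the vehicle library (29.6%, 13.8 to 50.2), both marker lists took at least 0.5% of UMIs. That limit was set after the values were seen, and 2 and 4 cells had pericyte markers within 0.3% to 0.7%. The cells with both lists had a median of 69.2 Rgs5 and 52.4 Acta2 UMIs per 10000 in the 1NMPP1 library and 73.6 Rgs5 and 61.0 Acta2 in the vehicle library. In each of them Rgs5, a gene of all mural cells, took most of the pericyte marker UMIs. Their medians of Kcnj8 and Abcc9 were 0 in both libraries, against 1.04 and 5.70 in vehicle pericyte-like cells. Vtn had 0.633 (1NMPP1) and 0.736 (vehicle) against 9.33. Higd1b went the other way, with 2.29 and 2.32 against 0.993. The smooth muscle-like cells with less than 0.5% of their UMIs in pericyte markers, which include Rgs5, and at least 0.5% in smooth muscle markers had a median of 11.8 Rgs5 (7 cells, 1NMPP1) and 3.55 Rgs5 (17 cells, vehicle) per 10000. Of the remaining vehicle cells of that cluster, 1 reached 0.5% in pericyte markers only and 1 in neither list.

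**Figure D2:**
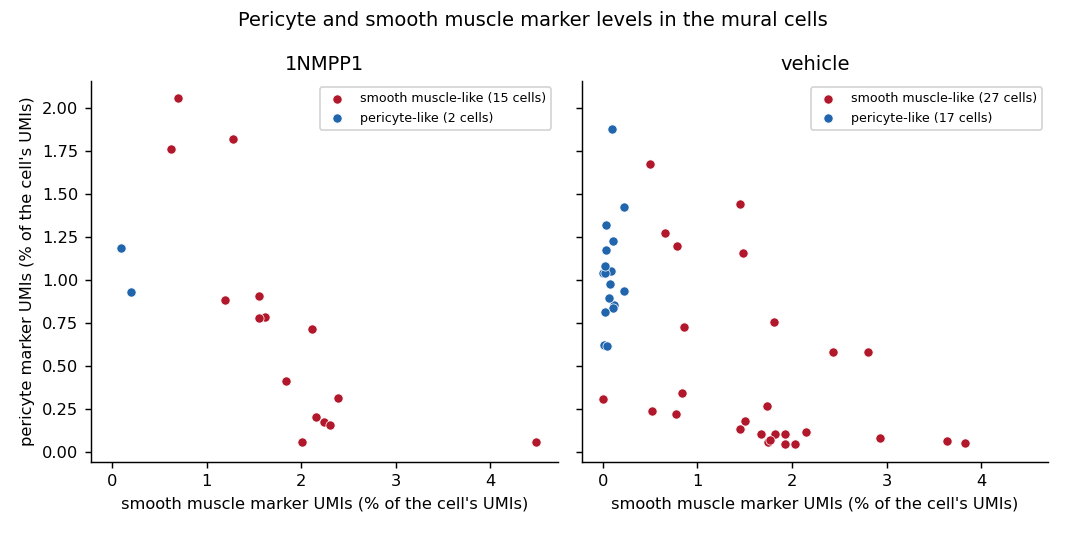
Each point is 1 mural cell of the 1NMPP1 library (left, 17 cells) or the vehicle library (right, 44 cells), by the percent of its UMIs in smooth muscle markers (x) and in pericyte markers (y). The 19 pericyte-like cells lie at the left edge, and 8 smooth muscle-like cells in each library have at least 0.5% of both.

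Some receptors of vascular tone differed between the cells and others did not. Of 7 receptor genes, 3 had a log2 ratio of 1 or more and 3 of -1 or less. Ednra, the endothelin receptor of smooth muscle, had 686 CPM in pericyte-like and 683 CPM in smooth muscle-like cells (log2 ratio 0.01, -0.38 to 0.38). Ednrb, the other endothelin receptor, had 677 CPM in pericyte-like cells and 46.1 CPM in smooth muscle-like cells. Agtr1a, an angiotensin II receptor, had 144 CPM in pericyte-like cells and 23.0 CPM in smooth muscle-like cells. Npy1r, a neuropeptide Y receptor, had 76.2 CPM in pericyte-like cells and 190 CPM in smooth muscle-like cells. Ramp1, a subunit of the receptor for the sensory peptide CGRP, had no UMI in pericyte-like cells and 124 CPM in smooth muscle-like cells. Of 20 genes of vascular tone channels and cyclic nucleotide enzymes, 4 were at a log2 ratio of 1 or more and 4 at -1 or less, shares near those of all genes (16.2% and 17.4%). Rgs16, Ano1 and Cacna1c were among those higher in pericyte-like cells, and Kcnma1, Cacna1h, Ppp1r12b and Ppp1r14a were lower. Ano1, a calcium-activated chloride channel, had 517 CPM in pericyte-like cells and 216 CPM in smooth muscle-like cells. The targets of nitric oxide, Gucy1a1 and Gucy1b1, had log2 ratios of -0.47 and -0.12.

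Some matrix genes also differed between the cells. Col4a1, a chain of basement membrane collagen, had 2049 CPM in pericyte-like cells and 907 CPM in smooth muscle-like cells. Lama2, a laminin chain, had 440 CPM in pericyte-like cells and 51.8 CPM in smooth muscle-like cells, and Lama5, another, 33.9 CPM and 262 CPM. Of 15 basement membrane genes, 6 were at 1 or more and 3 at -1 or less (median 0.42), where 16.2% and 17.4% of all genes were. Of 16 genes of the fibrillar matrix list, 3 were at 1 or more and 4 at -1 or less (median -0.13). Eln, elastin, had no UMI in pericyte-like cells and 167 CPM in smooth muscle-like cells.

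Signalling genes went both ways, and 16.2% of all genes were at 1 or more and 17.4% at -1 or less. Of 8 Notch genes, Jag1, Notch1 and Maml2 had a log2 ratio of 1 or more (1.72, 1.27 and 2.10) and the target Hes1 and the feedback inhibitor Nrarp of -1 or less (-2.34 and -1.10), with a median of 0.48. Of 18 TGF-beta and BMP genes, 3 were at 1 or more (Tgfbr1, Tgfbr3 and Bmp5) and 2 at -1 or less (Tgfb3 and Inhba), with a median of -0.19, near the shares of all genes. Of 8 neurotrophic and guidance genes, Bdnf, a neurotrophin, had 246 CPM in pericyte-like cells and 49.0 CPM in smooth muscle-like cells, and the netrin Ntn4 and the growth factor binding protein Igfbp4 had log2 ratios of -4.04 and -3.66. Immediate early genes had a median of -0.49 over 19 genes, with Klf6 at 1 or more and Fos, Klf2 and Btg2 at -1 or less.

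Interferon and cytokine genes were mostly higher on the pericyte side. Of 9 interferon-induced genes, 7 had a log2 ratio of 1 or more and none of -1 or less (median 1.54), where 16.2% and 17.4% of all genes were. Isg15 had 1152 CPM in pericyte-like cells and 449 CPM in smooth muscle-like cells, and Ifitm3 had 2015 CPM and 694 CPM. Of 11 chemokine and inflammatory genes, 6 had a ratio of 1 or more and none of -1 or less (median 1.20). Il6, an inflammatory cytokine, had 1067 CPM in pericyte-like cells and 282 CPM in smooth muscle-like cells, with a UMI in 11 of 17 and 10 of 27. Cxcl1, a neutrophil chemokine, had 423 CPM in pericyte-like cells and 57.6 CPM in smooth muscle-like cells. An endothelial gene of the rule was found in 8 of 17 pericyte-like and 5 of 27 smooth muscle-like cells, and satellite glia markers took a median of 0.0501% and 0.0177% of their UMIs. Without the cells that held an endothelial gene, a choice made after seeing the values, 5 of the 9 interferon-induced genes were at 1 or more and none at -1 or less (median 1.18). Of the 11 chemokine and inflammatory genes 6 were then at 1 or more and 2 at -1 or less (median 1.27), where 21.0% and 20.6% of all genes were. Ccl11 reached 432 CPM in pericyte-like cells, from 3 cells, with no UMI in smooth muscle-like cells. Of 13 heat shock genes, 3 (Hspa1a, Hspa1b and Dnajb1) were at 1 or more and none at -1 or less (median 0.55). Heat shock and immediate early genes are known to respond to enzymatic dissociation, whose part in these levels was not tested.

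**Figure D3:**
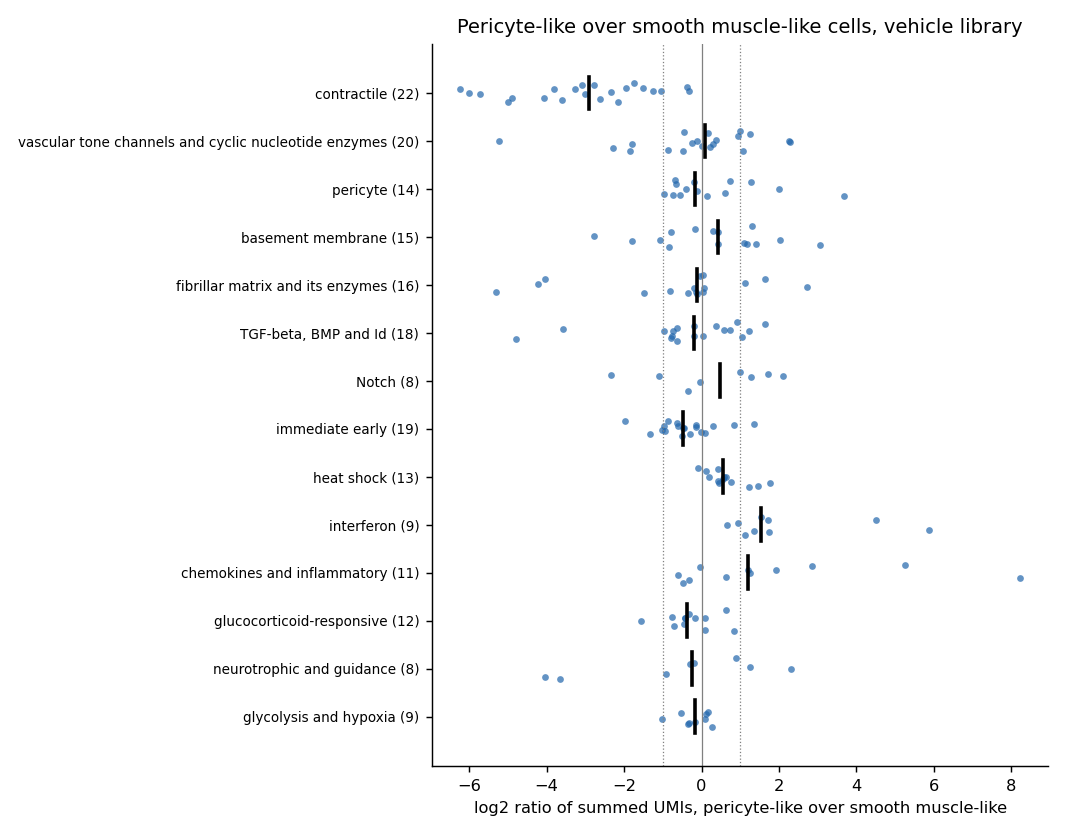
Each point is a gene with at least 20 UMIs, at its log2 ratio of summed UMIs in the 17 pericyte-like over the 27 smooth muscle-like cells of the vehicle library (x), grouped by gene list with the number of genes in brackets (y); black bars are list medians and dotted lines mark 1 and -1. The contractile median lies at -2.90 and the interferon median at 1.54.

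Set against all other ganglion barcodes, the mural cells of both libraries shared a set of genes that the rule did not use, although the clusters did. Xirp1, an actin-binding repeat protein, had 223 CPM in 1NMPP1 mural cells and 155 CPM in vehicle mural cells, against 0.0342 CPM and 0.0194 CPM in the other barcodes. Dgkb, a diacylglycerol kinase, had 1663 CPM in 1NMPP1 and 1597 CPM in vehicle mural cells, against 6.15 CPM and 8.27 CPM. Olfr558, an olfactory-type receptor, had 230 CPM in 1NMPP1 and 133 CPM in vehicle mural cells, with 0.0342 CPM and 0.155 CPM elsewhere. The connexin Gja4, the receptor Gper1, the peptidase inhibitor Pi15 and the guanylate cyclase chains Gucy1a1 and Gucy1b1 were also among the 20 leading genes.

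Endothelial and fibroblast barcodes of the same ganglia, defined by markers (122 endothelial and 117 fibroblast in the 1NMPP1 library, 138 and 149 in the vehicle library), lie next to mural cells in the tissue. Of 22 contractile genes, 19 were at least 2-fold higher in mural than in endothelial cells in both libraries and 20 were so against fibroblasts, where 9.45% and 10.5% of all genes were. Of 20 channel genes, 16 were so against endothelium. Interferon-induced genes went the other way, with 19 of 24 at least 2-fold lower in mural than in endothelial cells in both libraries (15.6% of all genes were). Of 28 genes of the fibrillar matrix list, 13 were at least 2-fold lower in mural cells than in fibroblasts (27.4% of all genes were) and 4 were higher. The minimum of 20 UMIs counted both cell types, and the mural sums were shallower. Over the mural cells alone, 10 of the 24 and 18 of the 28 genes had at least 20 UMIs. A count of 0 there allows up to 20.3 CPM (1NMPP1) and 6.45 CPM (vehicle). No bound was set, so some of these ratios may be lower than the counts can show. Il6 was 4.28 and 5.62 higher in mural than in endothelial cells on the log2 scale (1NMPP1, vehicle), and 1.71 and 3.66 higher than in fibroblasts. Neuron markers took 0.757% (1NMPP1) and 1.03% (vehicle) of the summed fibroblast UMIs, at medians per barcode of 0.00813% and 0.0156%. Of the summed endothelial UMIs they took 0.342% and 0.0189%. Neuron-marker members had medians of 1.35% and 1.66%. The fibroblast sums and the 1NMPP1 endothelial sum thus hold many UMIs of barcodes with neuron markers, and ratios against them are not against 1 cell type alone.

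Mural cells were a smaller share of all kept ganglion barcodes in the 1NMPP1 library, a difference that depended on which cells were counted. Their share was 0.772% (17 of 2201, 0.451 to 1.23) in the 1NMPP1 library and 1.498% (44 of 2938, 1.09 to 2.01) in the vehicle library, a log2 ratio of -0.96 (-1.86 to -0.12). Its interval also stayed below 0 without the barcodes of highest Scrublet doublet score (-1.12, -2.07 to -0.24), with at least 500 genes (-0.98, -1.88 to -0.14) and at a mitochondrial limit of 10% (-0.91, -1.82 to -0.06). Without the mural cells that had 3 or more markers of another class, over the same totals of barcodes, 15 mural cells of the 1NMPP1 library and 22 of the vehicle library were left, and the log2 ratio was -0.14 with an interval that holds 0 (-1.19 to 0.88). Among barcodes that are not blood the ratio was -0.53 (-1.52 to 0.40). Endothelial barcodes made up 5.54% in the 1NMPP1 library and 4.70% in the vehicle library, and mural cells were 12.2% and 24.2% of the mural and endothelial barcodes together (log2 ratio -0.98, -1.88 to -0.15). Pericyte-like cells were 0.0909% (2 cells, 0.0110 to 0.328) in the 1NMPP1 library and 0.579% (17 cells, 0.337 to 0.925) in the vehicle library, with a log2 ratio of -2.67 (-5.83 to -0.60). Of the 22 vehicle mural cells with 3 or more markers of another class, 14 were smooth muscle-like and the rest pericyte-like. In the 1NMPP1 library both such cells were smooth muscle-like. The pericyte-like ratio without these cells was not computed, and it rests on 2 cells on the 1NMPP1 side. Smooth muscle-like cells were 0.682% in the 1NMPP1 library and 0.919% in the vehicle library, with a log2 ratio of -0.43 (-1.45 to 0.53), an interval that holds no difference. All members by the rule made up 1.45% and 2.55% (log2 ratio -0.81, -1.46 to -0.20). Intervals of single libraries do not cover how ganglia were dissected and dissociated, so cell loss and cell number cannot be told apart.

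The sex of the cells, called from Xist and 4 Y-linked genes, differed between the libraries. Male-called barcodes were 385 of 2201 in the 1NMPP1 library and 1329 of 2938 in the vehicle library. Among male-called barcodes, mural cells were 2.34% (9 of 385) in the 1NMPP1 library and 2.11% (28 of 1329) in the vehicle library, a log2 ratio of 0.15 (-1.12 to 1.27). Among female-called barcodes they were 0.763% (8 of 1048) and 1.36% (8 of 588), a log2 ratio of -0.83 (-2.45 to 0.78). Both intervals hold 0. The mitochondrial limit took 2.48% of barcodes with enough genes in the 1NMPP1 library and 10.5% in the vehicle library. Of the barcodes it took, 1 of the 1NMPP1 library and none of the vehicle library met the mural and endothelial criteria.

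Within the smooth muscle-like cells, the contractile program differed little between 1NMPP1 and vehicle. Acta2 had 6633 CPM in 1NMPP1 cells and 6294 CPM in vehicle cells, a log2 ratio of 0.08 (-0.04 to 0.19). Per cell it ran from 15.2 over a median of 71.5 to 170 UMIs per 10000 in 1NMPP1 cells and from 0 over 54.5 to 155 in vehicle cells, so the groups overlapped over nearly their whole range. Tagln had 6223 CPM in 1NMPP1 cells and 7141 CPM in vehicle cells (-0.20, -0.31 to -0.09), and Myl9 3043 CPM and 2883 CPM (0.08, -0.09 to 0.24). Of 22 contractile genes, 2 were past a log2 ratio of 1, none past -1, and the median was 0.08. Over all 3899 genes with at least 20 UMIs, 9.03% were at 1 or more and 6.31% at -1 or less, with a median of 0.07. The 2 were Casq2, calsequestrin, the calcium store protein of the sarcoplasmic reticulum, with 260 CPM in 1NMPP1 cells and 107 CPM in vehicle cells (1.28, 0.58 to 1.99), and Synpo2, an actin-binding protein, with 440 CPM and 210 CPM (1.07, 0.55 to 1.58). Rgs5, a gene of the rule, had 6482 CPM in 1NMPP1 cells and 3480 CPM in vehicle cells, a log2 ratio of 0.90 (0.77 to 1.02).

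Of 23 genes of vascular tone channels and cyclic nucleotide enzymes, 5 were at 1 or more and 1 at -1 or less (median 0.26), where 9.03% and 6.31% of all genes were. Cacnb2, a subunit of voltage-gated calcium channels, had 1154 CPM in 1NMPP1 smooth muscle-like cells and 446 CPM in vehicle ones (1.37, 1.04 to 1.70). Ano1 had 555 CPM in 1NMPP1 cells and 216 CPM in vehicle cells (1.36, 0.88 to 1.84). Rgs16, another regulator of G proteins, had 346 CPM in 1NMPP1 cells and 112 CPM in vehicle cells (1.62, 0.98 to 2.27; 0.17 without cells that had 3 markers of another class). Slc8a1, the sodium-calcium exchanger (chr17:81373105-81738377), which is not on the list, had 433 CPM in 1NMPP1 cells and 118 CPM in vehicle cells (1.87, 1.28 to 2.48), with a UMI in 13 of 15 and 11 of 27. Its ratio was 2.78 in male-called cells and -0.22 in female-called cells, a difference that was not tested. Camk2d, a calcium-dependent kinase that is not on the list either, had 945 CPM and 334 CPM (1.498, 1.13 to 1.87), with a UMI in 14 of 15 and 23 of 27. Cacna1c, the pore of the vascular L-type calcium channel, had 1132 CPM in 1NMPP1 cells and 948 CPM in vehicle cells (0.26, -0.03 to 0.54). The single gene at the other end was Kcnmb1, from 2 and 18 UMIs.

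The rule for named genes also gave Atp6v0d1, a subunit of the vacuolar proton pump, at 231 CPM in 1NMPP1 smooth muscle-like cells and 51.8 CPM in vehicle ones (2.14, 1.28 to 3.07), with a UMI in 14 of 15 and 13 of 27. The ligand Wnt5b, the semaphorin receptor Plxna2, the zinc finger factor Zbtb7c and the interferon-inducible Ifi203 had log2 ratios of 1.49 to 1.75. Sirt1, a deacetylase, had a log2 ratio of 1.66, but 26 of its 33 UMIs in 1NMPP1 cells came from 1 cell, and without it the ratio was -0.45. Without the cell with the most UMIs, Ifi203 had 0.81 and the other 7 were at 1 or more. Without cells that had 3 markers of another class, Ifi203 had 0.44. In endothelial barcodes, Slc8a1 had 2.22 CPM (1NMPP1) and 1.03 CPM (vehicle), while Camk2d had 233 CPM and 164 CPM (log2 ratio 0.51). Neuron markers took 0.342% of the summed endothelial UMIs in the 1NMPP1 library and 0.0189% in the vehicle library.

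On the lower side, Gdf15, a stress-induced cytokine (chr8:70629393-70632456), had 36.1 CPM in 1NMPP1 smooth muscle-like cells and 202 CPM in vehicle ones (-2.36, -4.15 to -1.19), with a UMI in 3 of 15 and 17 of 27. Slbp, which binds the stem-loop of histone messengers, had 21.6 CPM and 173 CPM (-2.79, -5.32 to -1.38), with a UMI in 3 of 15 and 19 of 27. Zbtb11 and Nup210l, a zinc finger factor and a nuclear pore protein homologue, had log2 ratios of -2.05 and -2.01, and both were spread over many vehicle cells (19 and 18 of 27). Ppargc1a, a coactivator of mitochondrial genes, had 36.1 CPM and 179 CPM (-2.18, -3.98 to -1.01), and the matrix metalloproteinase Mmp14 14.4 CPM and 164 CPM (-3.20, -6.59 to -1.59). Of the 57 vehicle UMIs of Mmp14, 32 came from 1 cell, and without that cell the log2 ratio was -2.11.

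The matrix genes rested on 1 vehicle cell. Mgp, the matrix Gla protein (chr6:136872435-136875823), had 339 CPM in 1NMPP1 smooth muscle-like cells and 1515 CPM in vehicle ones (-2.15, -2.62 to -1.73), Col1a1 7.21 CPM and 236 CPM, S100a4 21.6 CPM and 294 CPM, and Col6a3 14.4 CPM and 167 CPM. A vehicle cell of 19219 UMIs, with 0.780% smooth muscle and 0.390% fibroblast marker UMIs, held 325 of the 526 vehicle UMIs of Mgp, 74 of 82 of Col1a1, 94 of 102 of S100a4 and 49 of 58 of Col6a3. Without it, Mgp had a log2 ratio of -0.84 (and of -0.02 without cells that had 3 markers of another class, 2 of 15 and 14 of 27 cells), Col1a1 of -1.26, S100a4 of -0.04 and Col6a3 of -0.68. The fibrillar matrix list, with 6 of 15 genes at -1 or less, none at 1 or more and a median of -0.59, had a median of 0.20 over 10 genes without that cell.

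**Figure D4:**
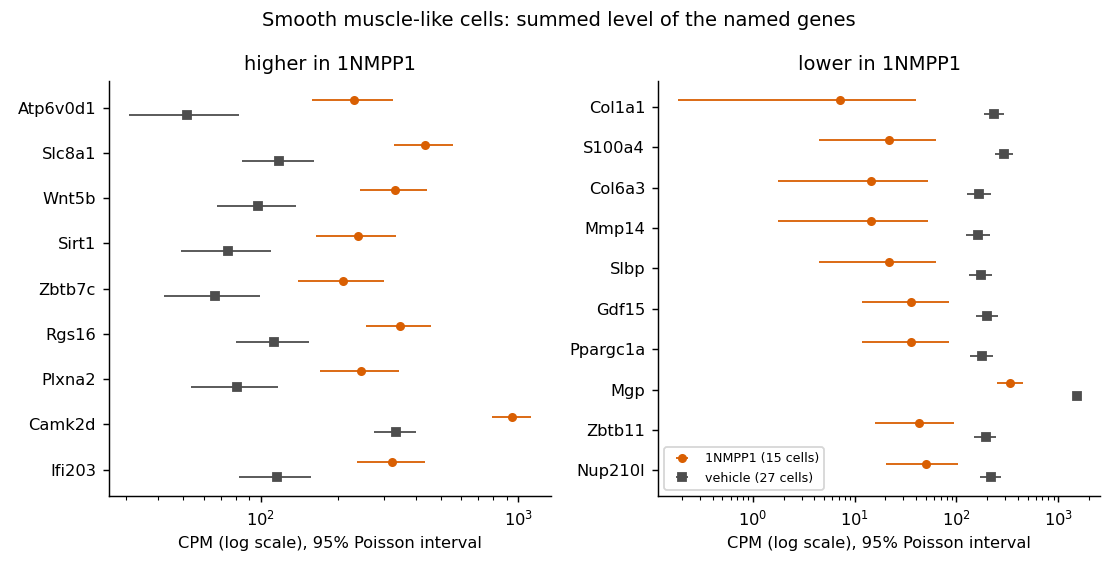
Summed level (CPM, log scale) of 19 named genes in the 15 smooth muscle-like cells of the 1NMPP1 library (circles, upper of each pair) and the 27 of the vehicle library (squares), with 95% Poisson intervals that cover counting error only. The left panel holds the genes higher in 1NMPP1 and the right panel those lower, of which Col1a1, S100a4, Col6a3, Mmp14 and Mgp drew most of their vehicle UMIs from 1 cell.

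In the other lists some genes were past the fold, where 9.03% of all genes were at 1 or more and 6.31% at -1 or less. Immediate early genes had a median of 0.37 over 20 genes, with Atf3, Btg2 and Klf6 at 1 or more and Ier3 at -1 or less. Atf3, a stress-induced factor, had 1824 CPM in 1NMPP1 smooth muscle-like cells and 818 CPM in vehicle ones (1.16, 0.91 to 1.41), and Fos, of the same class of genes, 1067 CPM and 1962 CPM (-0.87, -1.14 to -0.62), so genes of the list went both ways. Heat shock genes had a median of -0.29 over 13, with Cryab and Hsph1 at -1 or less. The small heat shock protein Cryab had 195 CPM in 1NMPP1 cells and 628 CPM in vehicle cells (-1.67, -2.32 to -1.11). Interferon-induced genes had a median of 0.01 over 6 genes with none past the fold, glycolysis genes -0.14 over 9 with none, and basement membrane genes 0.35 over 16, with Lamb2 at 1 or more and Fn1 (no UMI in 1NMPP1 cells, 21 UMIs in vehicle cells) at -1 or less. Of 19 TGF-beta and BMP genes 1 was at 1 or more (Bmpr2, 1.06) and 2 at -1 or less (among them Tgfbr2, -1.08), and of 8 Notch genes 1 was at 1 or more, the ligand Jag1 (1.32, 0.57 to 2.08). Of 8 neurotrophic and guidance genes 1 was past the fold, the neurotrophin Bdnf, with 159 CPM in 1NMPP1 cells (22 UMIs) and 49.0 CPM in vehicle cells (17 UMIs), a log2 ratio of 1.69 (0.72 to 2.70). Its UMIs came from 7 of 15 and 3 of 27 cells. The pericyte list had a median of 0.43 over 14 genes, with Mcam and Tbx2 at 1 or more. Chemokine and inflammatory genes had a median of 0.27 over 9 genes, with Steap4 at -1 or less, and glucocorticoid-responsive genes 0.34 over 12, with Per1 at 1 or more and Sgk1 at -1 or less. Of the few angiogenic, receptor and PDGF genes, Angpt1 and Pdgfd were at 1 or more and Ramp3, with no UMI in 1NMPP1 cells and 36 in vehicle cells, at -1 or less; no cell cycle gene was past the fold.

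**Figure D5:**
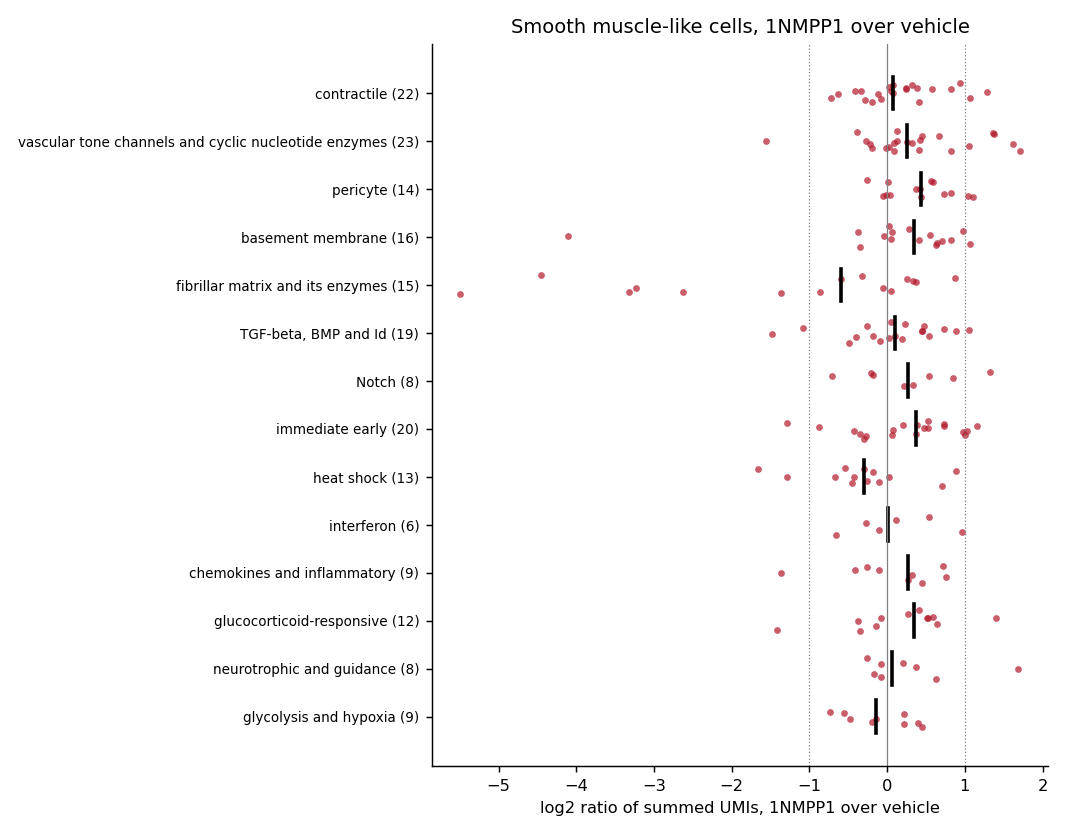
Each point is a gene with at least 20 UMIs, at its log2 ratio of summed UMIs in 1NMPP1 over vehicle smooth muscle-like cells (x), grouped by gene list with the number of genes in brackets (y); black bars are list medians and dotted lines mark 1 and -1. The contractile median lies at 0.08 and the fibrillar matrix median at -0.59.

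Over all 61 mural cells, 388 of 4651 genes (8.34%) were at a log2 ratio of 1 or more and 410 (8.82%) at -1 or less. This sum also carries the difference in makeup, with 2 of 17 cells pericyte-like in the 1NMPP1 library and 17 of 44 in the vehicle library. Abcc9, with 27.05 CPM in 1NMPP1 and 144 CPM in vehicle mural cells (-2.25, -4.33 to -0.99), was among the 10 lowest that passed the rule for named genes. In the 2 pericyte-like cells of the 1NMPP1 library (9202 UMIs, where 3 UMIs are 326 CPM) no level was compared; Rgs5 had 45 UMIs there, Iigp1 30 and Ifitm1 12.

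Over all members by the rule, 912 of 12154 genes (7.5%) were at 1 or more and 1360 (11.2%) at -1 or less. The 6 chondrocyte-marker barcodes were all in the vehicle library. Lowest of those that passed the rule for named genes, Col2a1, the collagen of cartilage, had 2.79 CPM in 1NMPP1 members and 2225 CPM in vehicle members, and Spp1, osteopontin, 4.19 CPM and 495 CPM. The highest that passed it were Dhdh, a dehydrogenase, with 65.0 CPM in 1NMPP1 and 4.27 CPM in vehicle members, and Nr1d2, a clock repressor, with 277 CPM and 21.7 CPM. Of the 93 Dhdh UMIs of 1NMPP1 members 1 lay in mural cells, and of the 396 of Nr1d2, 13 did.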

How the data were processed

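Both ganglion libraries were 10x Genomics Chromium libraries. What the authors deposited are raw UMI counts of 32285 genes. Per the file headers the counts come from Cell Ranger 7.2.0, and the submitters' processing notes name mm10. Kit chemistry and gene annotation were not stated. The added tdTomato sequence stayed out of library sums for genes.

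The members, gene lists and rules were chosen with earlier results of these data known. Members were clustered (Leiden, 2000 variable genes, 15 components, 15 neighbours, resolution 0.5; scanpy 1.11.5, Python 3.11.15). Counts were summed per library and cluster and scaled to CPM. The log2 ratio is 1NMPP1 over vehicle with 0.5 UMI added, for genes with at least 20 UMIs. Shares have exact Clopper-Pearson, CPM exact Poisson and ratios exact conditional intervals at 95%. The ratio and its interval were tested on simulated Poisson counts at the depth of all members. The clustering, the rule for named genes, the shallower mural sums and the spread between cells were not tested that way. Doublets were not removed in the main values; Scrublet was an alternative.

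Named genes had at least 50 UMIs, a UMI in 20% of cells of the higher library, a log2 ratio of 1 or more in size that kept its sign with each cell weighed alike, and at least 25% of the CPM of other ganglion barcodes; the 10 highest and 10 lowest were taken. The same rule was applied within the smooth muscle-like cluster after the members were seen. For pericyte-like over smooth muscle-like cells, 15 genes a side were named, with at least 50 UMIs and a UMI in 40% of the cells of the higher side. Endothelial barcodes had 4 or more endothelial markers and fibroblast barcodes 3 or more of 7 fibroblast markers, both with fewer than 3 mural ones. Of the ganglion barcodes, 4 sequences occurred in both libraries, none a member; 1 member's barcode also occurred in a growth plate library. Total depth was 32790205 UMIs in the 1NMPP1 library and 57303037 in the vehicle library. Mural cells held 147892 and 465252 UMIs, so 3 UMIs, the limit a count of 0 allows, are 20.3 and 6.45 CPM. The targeted receptor, its ligand and a few genes that enter the counts over lists are not reported here.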

Additional observations from a re-analysis of the deposited data

Results flagged for a closer look

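The share of mural cells had opposite signs in cells of the 2 called sexes: the log2 ratio of 1NMPP1 over vehicle was 0.15 in male-called barcodes (9 of 385 and 28 of 1329) and -0.83 in female-called ones (8 of 1048 and 8 of 588). The difference between the sexes was not tested, and both intervals hold 0.

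Within the smooth muscle-like cells, Slc8a1 had a log2 ratio of 2.78 in male-called cells and -0.22 in female-called cells, and Mgp of -3.50 and 2.91. One male-called vehicle cell, the one with the most fibroblast marker UMIs, held 325 of the 523 Mgp UMIs of that group, and without it the male-called ratio was -2.21. The female-called ratio of Mgp rests on 37 UMIs in 8 cells of the 1NMPP1 library and 3 UMIs in 5 cells of the vehicle library. With 1 library per group these differences were not tested either.

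The same rule also found barcodes in libraries outside the comparison. It found 11 of 11634 barcodes in the 1NMPP1 growth plate library and 7 of 9380 in the vehicle growth plate library, of which 2 and 1 had at least 0.5% of their UMIs in the 7 mural genes (highest 2.56% and 2.17%).

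The added tdTomato sequence had 821 UMIs in the members of the 1NMPP1 library and 12 in those of the vehicle library. Of these, 806 and 5 lay in neuron-marker barcodes, and 1 UMI in 1 mural cell and 4 UMIs in 4 mural cells. What tdTomato marks was not stated.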

How the results depend on the processing

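No paired analysis was possible because each group is 1 library. Leaving out a replicate was not possible for the same reason.

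The log2 ratio of the member share was -0.14 without members that had 3 markers of another class and -0.14 among barcodes that are not blood, and that of the mural cells was 0.15 in male-called barcodes. For all members, the number of genes at 1 or more and at -1 or less (912 and 1360) depended on the settings: 180 and 193 when thinned to 2000 UMIs, 596 and 839 with at least 50 UMIs, 2711 and 3696 with no minimum, 257 and 264 without members that had 3 other markers, and 2263 and 2627 in members with no Myh11 UMI. The number at 1 or more was 1782 with each cell weighed alike, 2620 with 4 of 7 mural genes required, 1415 in members with a Myh11 UMI and 2748 in female-called members, and the number at -1 or less was 671 without the deepest 10% of members and 2302 in male-called members. In the mural clusters the numbers were 388 and 410, and in the smooth muscle-like cluster 352 and 246. Within that cluster they were 49 and 51 when thinned, 89 and 68 with at least 50 UMIs, 3020 and 1436 with no minimum and 128 and 136 in female-called cells; the number at 1 or more was 220 without cells that had 3 other markers and 146 in the smaller part at resolution 1. Fewer genes or cells enter the thinned, stricter and split settings by construction; the cause was not tested otherwise.

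Signs turned for the cell cycle median over all members (0.032 when thinned, 0.033 without members with 3 other markers), the fibrillar matrix median (0.33 without those members, 1.34 with no Myh11 UMI), Egr2 (-1.08 with 4 of 7 genes required), and Thada and Cul4b in male-called members (-0.20 and -1.34). In the smooth muscle-like cluster they turned for Slc8a1 (-0.22) and Mgp (2.91) in female-called cells. Of 192 values of named genes there, 168 moved by less than the counting interval. Of these, the values with at least 50 UMIs and with no minimum (20 of 20 each) could not move, since named genes had 50 UMIs or more. Centring on the median of all genes and a pseudocount of 1 UMI could move them little (20 of 20 each). The sign with each cell weighed alike was part of the rule for named genes (20 of 20). In male-called cells 13 of 20 stayed within it, and without cells that had 3 other markers 13 of 16. Fewer did in female-called cells (3 of 9, with 2 turned), in the smaller part at resolution 1 (3 of 8) and when thinned (0 of 2). The other genes fell below the minimum in those settings.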

Other observations

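The 14 fibroblast-marker members were led, against the other ganglion barcodes, by Svep1, Lpl, Lepr and Notch3 (a gene of the rule), and the 16 satellite glia-marker members by Apoc1, Slc6a11 and Fjx1. Their median depth was 16559 and 24448 UMIs, against 11370 and 6875 in the 42 smooth muscle-like and 19 pericyte-like cells, and 333850 in the neuron-marker cluster.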
